A study of Mus musculus with 11 samples.

Results

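The Hippo pathway genes described here are 33 of the 23224 gene names in the count table, found by name: 19 pathway components and 14 genes that YAP and TAZ are known to activate. They were taken by their listed symbols, with Ctgf, Cyr61 and Jub as the table's names for the genes now called Ccn2, Ccn1 and Ajuba. All 33 matched a row and all 33 were among the 13720 genes with enough counts to be tested.

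Poly(A) RNA was sequenced from AKP organoids of mouse colon cancer, giving 11 libraries. Every group carries the AKP genotype. C57Bl6 tumour-derived organoids (3 libraries) were re-grown from primary tumours that formed after the parent organoids were placed in the colon of immunocompetent C57Bl6 mice. RAG2KO tumour-derived organoids (3 libraries) were made in the same way from immunodeficient RAG2KO mice, which form no mature T or B cells but keep innate immune cells. A constitutive and a doxycycline-inducible SOX17 overexpression line (SOX17OE, 1 library each) were made by lentivirus from the naive organoids. Naive organoids (3 libraries) had not been transplanted. The promoter of the constitutive construct, whether doxycycline was given, and the age of the mice are not stated in the labels, and each SOX17OE line stands for itself alone. The tumour organoids were passaged until cancer cells alone were thought to remain, so every value is from culture and not from a tumour in place. Nothing in the sources says that replicates came from separate cultures or mice, so p-values reflect no more than the spread among these libraries, which may be technical.

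The Hippo pathway restrains growth by keeping its effectors out of the nucleus. The kinases MST1 and MST2 (Stk4 and Stk3), with the scaffold SAV1, activate LATS1 and LATS2, whose partner is MOB1; LATS kinases phosphorylate YAP (Yap1) and TAZ (Wwtr1), which are then held in the cytoplasm or degraded. Unphosphorylated YAP and TAZ enter the nucleus, bind TEAD transcription factors and switch on target genes. In the intestine YAP and TAZ are known for their part in repair after injury and in tumour growth. Several targets, among them Amotl2, Jub, Ptpn14 and Lats2, code for proteins that act back on the pathway. Control of YAP and TAZ is mainly by phosphorylation, so the RNA levels of the components do not measure pathway activity.

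Depth and identity of the libraries were as follows. Library totals were 14109182 to 22154456 expected counts. Levels are given as CPM, counts scaled to a common library total with TMM factors. Sox17, the check of the SOX17OE lines, stood at 18.4, 12.4 and 74.3 CPM in C57Bl6 libraries, 22.2, 15.4 and 24.4 CPM in RAG2KO libraries, 72.7 CPM in the constitutive line, 4.78 CPM in the inducible line, and at most 0.214 CPM in naive libraries. The 7 epithelial markers (Epcam, Cdh1, keratins, Vil1, Cdx2) were all detected in every group and summed to 6349 to 11031 CPM, lowest in the constitutive line. The 8 fibroblast and smooth muscle markers summed to at most 2.24 CPM in 9 libraries, to 10.2 CPM in RAG2KO replicate 2 and to 6.80 CPM in the constitutive line. The 6 endothelial markers summed to 36.0 CPM in the constitutive line, 7.05 CPM in the inducible line and at most 4.79 CPM elsewhere. The 7 immune markers summed to 3.93 to 16.2 CPM. The share of counts on Rn45s (precursor of ribosomal RNA) was 2.21 to 3.77% in C57Bl6 libraries and 6.56 to 8.54% in RAG2KO libraries, ranges that do not overlap. Its share was 6.39% in the constitutive line, 3.71% in the inducible line and 2.42 to 4.99% in naive libraries.

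TEAD factors are known to bind DNA at the core motif GGAATG, and promoters of 4 members that hold it are shown because their genes were among those higher in C57Bl6 tumour-derived organoids. Each sequence is the 250 bases before the RefSeq start site, 5′ to 3′ on the gene's strand, on GRCm38.p6; all 4 genes lie on the minus strand. Capitals mark GGAATG, or CATTCC where the motif is on the other strand. The regions are chr19:36119845-36120094 for Ankrd1, chr3:145649986-145650235 for Cyr61, chr14:54577662-54577911 for Jub and chr8:47990545-47990794 for Wwc2.
Ankrd1: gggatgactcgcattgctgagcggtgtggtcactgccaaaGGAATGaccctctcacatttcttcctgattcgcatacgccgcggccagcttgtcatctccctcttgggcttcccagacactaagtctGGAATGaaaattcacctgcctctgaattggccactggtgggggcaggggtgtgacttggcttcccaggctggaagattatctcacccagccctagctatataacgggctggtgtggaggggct
Cyr61: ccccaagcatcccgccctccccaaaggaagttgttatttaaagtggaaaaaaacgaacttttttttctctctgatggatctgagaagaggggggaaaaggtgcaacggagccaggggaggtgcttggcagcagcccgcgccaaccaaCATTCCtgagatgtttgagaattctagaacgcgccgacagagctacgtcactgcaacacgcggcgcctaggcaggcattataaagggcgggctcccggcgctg
Jub: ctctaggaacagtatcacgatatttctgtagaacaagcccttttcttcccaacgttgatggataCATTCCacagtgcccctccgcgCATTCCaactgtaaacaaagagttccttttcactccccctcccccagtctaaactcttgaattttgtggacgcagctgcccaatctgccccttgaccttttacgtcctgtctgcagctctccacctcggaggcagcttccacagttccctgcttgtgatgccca
Wwc2: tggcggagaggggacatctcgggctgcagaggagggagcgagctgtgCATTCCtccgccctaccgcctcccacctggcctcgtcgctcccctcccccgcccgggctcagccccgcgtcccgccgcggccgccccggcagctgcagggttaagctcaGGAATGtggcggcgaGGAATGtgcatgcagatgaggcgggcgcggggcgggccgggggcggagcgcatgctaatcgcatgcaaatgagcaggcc

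Ankrd1 held the motif 210 and 123 bases before its start, Cyr61 103 bases before, Jub 186 and 164 bases before, and Wwc2 203, 94 and 79 bases before. Of the 33 members, 27 had a promoter of 300 bases (250 before and 50 after the start) in the RefSeq table, and 17 of the 27 held the motif on either strand, 8 of 12 targets and 9 of 15 components. For comparison, 16.6% of all 27025 genes with a promoter held it. Genes with more than 1 start site count once if any of their promoters holds it. Of the other members higher in C57Bl6 than in naive organoids, Amotl2, Ptpn14, Lats2 and Wwtr1 held it. Gadd45b and Wwc1 did not, and Ctgf had no promoter in the RefSeq table. Of the members called in no comparison, Yap1, Tead3, Vgll4, Mob1a and Axl held it, and Tead2, Stk4, Frmd6, Amotl1 and Tgfb1 did not. A match is a description of these letters and not a measured site of binding, and promoters without the letters are not thereby known to lack TEAD.

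C57Bl6 tumour-derived against naive organoids asks which members differ after growth in an immunocompetent mouse. Of 14 target genes 7 were higher and 0 lower, and of 19 components 4 were higher and 0 lower. Among all 13720 genes tested, 9.50% were called higher and 5.85% lower. Calls are genes whose adjusted p (edgeR's quasi-likelihood test, Benjamini-Hochberg) was under 0.05, and every adjusted p is from that test unless another is named. The median log2 fold change was 1.20 over the targets and 0.25 over the components, beside 0.02 over all genes tested.

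Ankrd1, which codes for an ankyrin repeat protein of the nucleus and the muscle sarcomere and is among the most used readouts of YAP, had 25.4, 46.3 and 15.6 CPM in C57Bl6 libraries, against 0.286, 0.132 and 0.620 CPM in naive libraries. It was near background in naive cells and every C57Bl6 library stood far above them. The log2 fold change was 6.36 ± 0.88 (SE, adjusted p = 0.00183), and 7.18 without naive replicate 3. Ctgf, a secreted matricellular protein, had 616, 490.5 and 222 CPM in C57Bl6 libraries, against 57.4, 66.3 and 154.8 CPM in naive libraries. The groups did not overlap, though the lowest C57Bl6 library and the highest naive one were close, and Ctgf was 4.76-fold higher (log2 2.25 ± 0.52, adjusted p = 0.0202; log2 2.84 without naive replicate 3). Cyr61, a secreted relative of Ctgf, had 43.3, 101.2 and 27.8 CPM in C57Bl6 libraries, against 9.58, 15.5 and 20.4 CPM in naive libraries. Its C57Bl6 libraries differed widely among themselves and all lay above the naive ones (log2 1.92 ± 0.52, adjusted p = 0.0357), with a log2 fold change of 1.23 without C57Bl6 replicate 2.

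Jub, a LIM protein that binds and inhibits LATS kinases, had 140.9, 157 and 141.7 CPM in C57Bl6 libraries, against 57.7, 56.8 and 64.5 CPM in naive libraries. Replicates were close together in both groups and Jub was 2.45-fold higher (log2 1.30 ± 0.12, adjusted p = 0.000165). Ptpn14, a phosphatase that can hold YAP in the cytoplasm, had 61.7, 82.2 and 77.6 CPM in C57Bl6 libraries, against 29.2, 35.3 and 38.6 CPM in naive libraries. Those values do not overlap and gave a log2 fold change of 1.10 ± 0.16 (adjusted p = 0.00178). Amotl2, an angiomotin that binds YAP at junctions, had 37.7, 96.6 and 51.7 CPM in C57Bl6 libraries, against 14.5, 22.5 and 32.2 CPM in naive libraries. Replicate 2 was far above the other C57Bl6 libraries (log2 1.42 ± 0.36, adjusted p = 0.0283). Gadd45b, a stress-induced regulator of growth arrest and MAP kinase signalling, averaged 43.6 ± 6.50 CPM in C57Bl6 libraries and 21.7 ± 1.65 CPM in naive libraries (SD, n = 3 each), with a log2 fold change of 1.01 ± 0.14 (adjusted p = 0.00165).

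Among the other 7 targets, F3, which codes for tissue factor, the starter of coagulation, had 509, 206.8 and 115.4 CPM in C57Bl6 libraries, against 65.9, 84.5 and 122.4 CPM in naive libraries. The groups overlapped and F3 did not pass the test (log2 1.61 ± 0.50, adjusted p = 0.0594). Axl, a receptor tyrosine kinase, had 3.82, 4.88 and 0.404 CPM in C57Bl6 libraries, against 0, 0 and 0.0953 CPM in naive libraries, and did not pass either (adjusted p = 0.078). With 168 counts in the C57Bl6 libraries and 2 in the naive ones, the ratio of Axl was 85.6, with a 95% counting interval of 23.3 to 713 that covers counting error only. Without naive replicate 2 that ratio was 51.8, and without naive replicate 3, which held both naive counts, Axl was at least 17.6-fold higher against a floor of 3 counts per library. Amotl1, the second angiomotin here, had a log2 fold change of 1.03 ± 0.48 (adjusted p = 0.189). Crim1, a membrane protein that binds BMPs, Nt5dc3, a nucleotidase family member, Tgfb1, a secreted growth factor, and Nuak2, a kinase of the AMPK family, had log2 fold changes between -0.28 and 0.44, with adjusted p of 0.497 to 0.989.

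**Figure D1:**
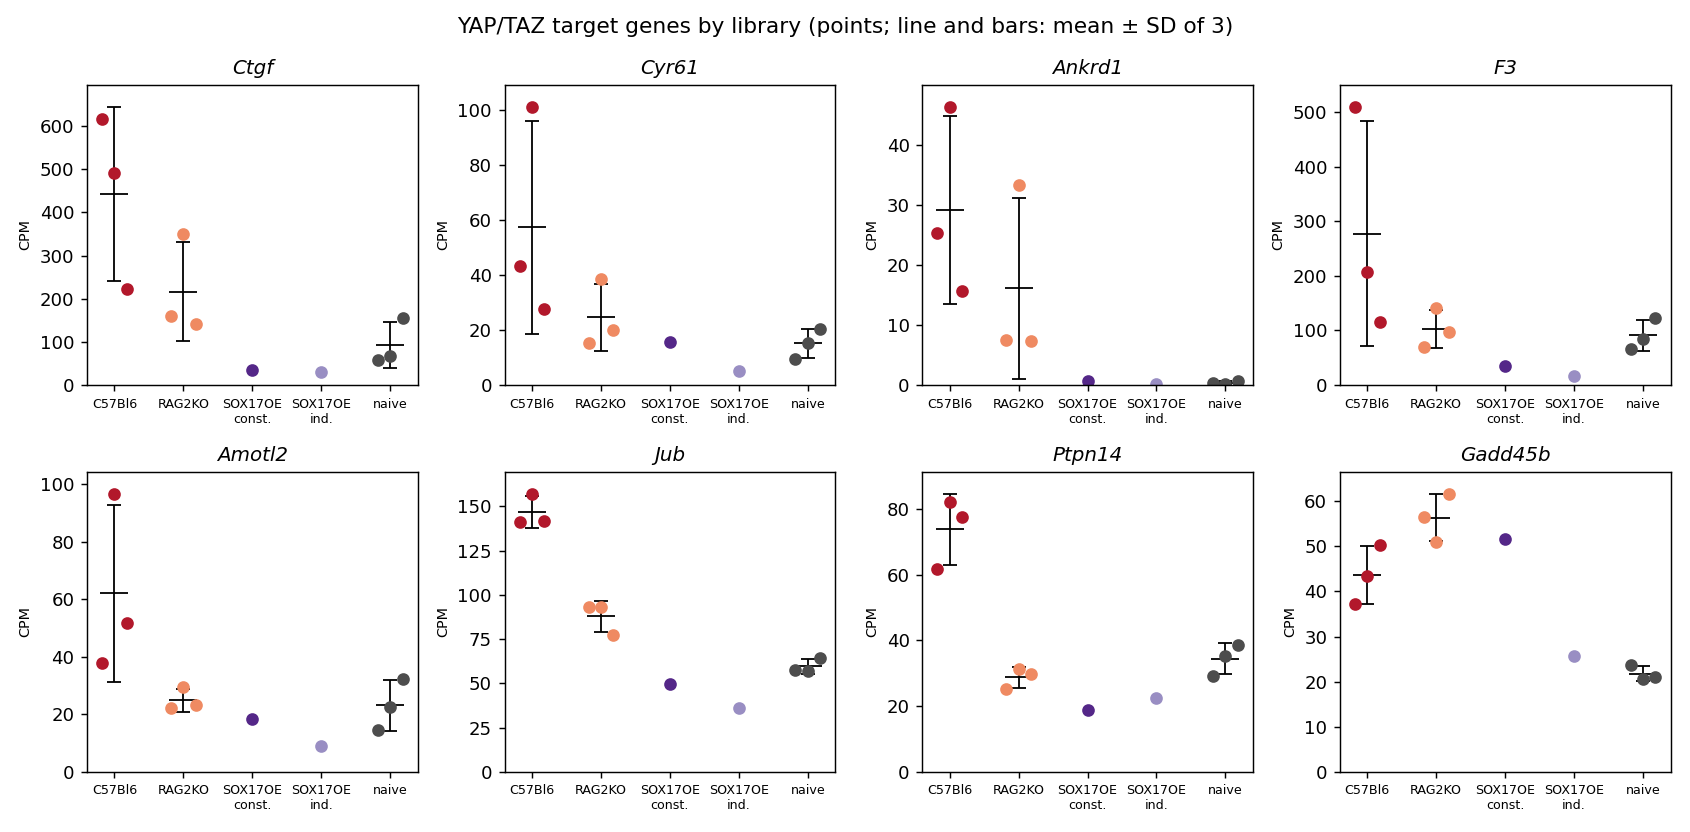
Levels of 8 YAP/TAZ target genes in CPM, with 1 point per library, and the mean and SD of the 3 libraries in the C57Bl6, RAG2KO and naive groups. Ankrd1 was at 15.6 to 46.3 CPM in the C57Bl6 libraries and at most 0.620 CPM in the naive ones, and Jub fell into 3 separate bands for C57Bl6, RAG2KO and naive.

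Of the components, 4 were higher in C57Bl6 tumour-derived organoids. Wwc2, a KIBRA family scaffold that promotes LATS activation, had 62.4, 60.3 and 55.4 CPM in C57Bl6 libraries, against 25.3, 24.7 and 35.3 CPM in naive libraries. Every C57Bl6 library was well above the naive ones (log2 1.06 ± 0.17, adjusted p = 0.00293). Wwc1, which codes for KIBRA itself, had 140.1, 168.7 and 121.8 CPM in C57Bl6 libraries, against 61.6, 79.0 and 104.4 CPM in naive libraries (log2 0.81 ± 0.20, adjusted p = 0.0221). Lats2, the kinase that YAP itself is known to induce, averaged 18.7 ± 2.25 CPM in C57Bl6 libraries and 10.6 ± 3.10 CPM in naive libraries (SD, n = 3 each; log2 0.82 ± 0.23, adjusted p = 0.04). Wwtr1, which codes for TAZ, had 95.7, 87.4 and 86.0 CPM in C57Bl6 libraries, against 47.5, 50.2 and 69.5 CPM in naive libraries (log2 0.69 ± 0.17, adjusted p = 0.022). For Wwc1, Lats2 and Wwtr1 the groups lay apart, with naive replicate 3 nearest to the C57Bl6 libraries each time.

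Yap1 averaged 147.6 ± 7.96 CPM in C57Bl6 libraries and 127.9 ± 5.81 CPM in naive libraries (SD, n = 3 each), and did not pass the test (log2 0.21 ± 0.10, adjusted p = 0.208). The remaining 14 components, among them the MST kinases, Lats1, Nf2 and the 4 TEAD genes, had log2 fold changes from -0.14 to 0.64 with adjusted p of 0.0541 to 0.876. Frmd6, a FERM protein upstream of the kinases, came closest (log2 0.64 ± 0.20, adjusted p = 0.0541).

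Ankrd1, Jub, Ptpn14, Gadd45b and Wwc2 passed in all 23 other settings and sample sets tried. Ctgf, Cyr61, Amotl2, Wwtr1, Lats2 and Wwc1 lost the call without naive replicate 1 and also without naive replicate 2, at adjusted p of 0.0844 to 0.135, which left 5 members called in each case. Counts over all genes with a library left out are not set beside these member counts. Without C57Bl6 replicate 2, Cyr61, Amotl2, Wwc1 and Lats2 lost it (adjusted p of 0.0701 to 0.0933), which left 7. Wwtr1 and Lats2 also lost it without C57Bl6 replicate 1 (adjusted p = 0.0533 and 0.0958), Cyr61 without naive replicate 3 (adjusted p = 0.0686), and Lats2 without C57Bl6 replicate 3 or RAG2KO replicate 1 (adjusted p = 0.0604 and 0.0512). Ctgf and Cyr61 also lost the call with no filter on low counts, Cyr61 and Lats2 with the Rn45s share as a covariate, and Amotl2 when the groups compared were fitted alone. In bulk RNA, fewer cells of a type and less RNA per cell cannot be told apart.

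RAG2KO tumour-derived against naive organoids puts the same question for an immunodeficient mouse. Of the 14 targets 3 were higher and 2 lower, and of the 19 components 0 were higher and 5 lower. Over all genes tested, 16.0% were called higher and 13.3% lower. In either direction 29.2% of all genes were called, so that 10 of the 33 members is a count near the background. The median log2 fold change was 0.23 over the targets and -0.34 over the components, beside 0.02 over all genes. This comparison shares its naive libraries with the one before, so the 2 sets of values are not independent of each other.

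Ankrd1 had 7.55, 33.4 and 7.30 CPM in RAG2KO libraries, all above the naive libraries, which reached 0.620 CPM. The log2 fold change was 5.51 ± 0.87 (adjusted p = 0.00251), and 4.39 ± 0.58 without RAG2KO replicate 2 (adjusted p = 0.00185) and 6.33 without naive replicate 3. Jub had 93.1, 92.8 and 77.5 CPM in RAG2KO libraries, against 57.7, 56.8 and 64.5 CPM in naive libraries (log2 0.56 ± 0.12, adjusted p = 0.00826). Gadd45b had 56.5, 51.0 and 61.6 CPM in RAG2KO libraries, against 23.6, 20.5 and 21.1 CPM in naive libraries. The groups did not overlap for Ankrd1, Jub or Gadd45b (Gadd45b log2 1.38 ± 0.15, adjusted p = 0.000312). Ctgf had 159.9, 349.1 and 140.4 CPM in RAG2KO libraries, which overlapped the naive libraries at up to 154.8 CPM. It did not pass (log2 1.22 ± 0.51, adjusted p = 0.0998). Axl was at 0, 3.79 and 0 CPM in RAG2KO libraries, so all of its 65 counts came from replicate 2.

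RAG2KO replicate 2 was the highest of the 3 RAG2KO libraries for 11 of 14 targets and 12 of 19 components. A like skew was seen in the naive group, where replicate 3 was the highest for 12 of 14 targets and 11 of 19 components. The same count over all genes was not made. RAG2KO replicate 2 is also the library with the 10.2 CPM of fibroblast and smooth muscle markers, of which Col3a1 gave 7.06 CPM, while Lum and Pdgfrb were near 0. The part of those markers in its target levels was not tested. Without it, Ctgf had a log2 fold change of 0.69 against naive (adjusted p = 0.355) and 3 members were still higher, with 4 lower.

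The components lower in RAG2KO organoids were Lats1, Limd1, Nf2, Tead1 and Tead4. Lats1, which phosphorylates YAP, had 32.7, 33.5 and 33.1 CPM in RAG2KO libraries, against 48.1, 50.7 and 51.8 CPM in naive libraries. Both groups were tight and lay apart (log2 -0.60 ± 0.11, adjusted p = 0.00488). Limd1, a LIM protein that can inhibit LATS, had 35.9, 36.5 and 38.8 CPM in RAG2KO libraries, against 52.1, 56.1 and 59.2 CPM in naive libraries (log2 -0.59 ± 0.13, adjusted p = 0.00801). Nf2, which codes for merlin, the membrane-cytoskeleton tumour suppressor that recruits LATS, had a log2 fold change of -0.40 ± 0.13 (adjusted p = 0.0398). Tead1 had 28.0, 23.9 and 25.7 CPM in RAG2KO libraries, against 30.7, 38.3 and 46.7 CPM in naive libraries (log2 -0.58 ± 0.16, adjusted p = 0.0237). Tead4 had 22.9, 28.5 and 26.9 CPM in RAG2KO libraries, against 34.6, 39.9 and 56.9 CPM in naive libraries (log2 -0.75 ± 0.22, adjusted p = 0.028). Among the targets, Crim1 averaged 20.1 ± 1.80 CPM in RAG2KO libraries and 38.0 ± 15.1 CPM in naive libraries (SD, n = 3 each; log2 -0.92 ± 0.26, adjusted p = 0.0236), and Nt5dc3 had a log2 fold change of -1.06 ± 0.30 (adjusted p = 0.0258). The other 23 members did not pass.

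Lats1, Limd1, Ankrd1, Jub and Gadd45b passed with any 1 library left out. Tead1, Tead4, Nf2, Crim1 and Nt5dc3 all lost the call without RAG2KO replicate 3 (5 members left), and some of them without RAG2KO replicate 1 or 2 or without naive replicate 1, 2 or 3, at adjusted p of 0.0528 to 0.138 over these sets. Counts over all genes in these sets are not given here. Nf2 also lost it under upper quartile scaling and with no filter. With the Rn45s share as a covariate, 148 genes were called over all genes tested, in place of 4010. In that fit 0 of the 10 members passed, at adjusted p of 0.0633 to 0.742, and all 10 kept their sign. Gadd45b was then at 1.39 ± 0.28 and Lats1 at -0.52 ± 0.22 on the log2 scale, while Tead1 was at -0.21 ± 0.28 (SE).

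C57Bl6 against RAG2KO tumour-derived organoids is the direct test between the recipients. Of the 19 components 10 were higher and 0 lower, and of the 14 targets 4 were higher and 0 lower in C57Bl6. Over all genes tested, 24.0% were called, 12.2% higher and 11.8% lower. The median log2 fold change was 0.97 over the targets and 0.49 over the components, beside 0.0011 over all genes.

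Of the components, 4 of 6 upstream regulators, 3 of 6 core kinase genes and 3 of 7 effectors and partners were higher, with Tead1 and Tead4 called and Tead2 and Tead3 not. Wwc1 had 140.1, 168.7 and 121.8 CPM in C57Bl6 libraries, against 52.4, 67.1 and 61.6 CPM in RAG2KO libraries (log2 1.25 ± 0.20, adjusted p = 0.00392). Tead1 had 55.4, 48.4 and 53.8 CPM in C57Bl6 libraries, against 28.0, 23.9 and 25.7 CPM in RAG2KO libraries (log2 1.02 ± 0.16, adjusted p = 0.0037). For both genes the lowest C57Bl6 library stood well above the highest RAG2KO library, and the Tead1 replicates were close together. Tead4 had 63.7, 47.6 and 41.2 CPM in C57Bl6 libraries, against 22.9, 28.5 and 26.9 CPM in RAG2KO libraries (log2 0.96 ± 0.22, adjusted p = 0.0131). Lats2 averaged 18.7 ± 2.25 CPM in C57Bl6 libraries and 8.23 ± 1.20 CPM in RAG2KO libraries (SD, n = 3 each; log2 1.18 ± 0.24, adjusted p = 0.00835). Fat1, an atypical cadherin upstream of the kinases, had 225.2, 117.8 and 133.2 CPM in C57Bl6 libraries, against 57.2, 87.6 and 71.0 CPM in RAG2KO libraries, with C57Bl6 replicate 1 standing high (log2 1.14 ± 0.29, adjusted p = 0.0209). Sav1, Wwc2, Limd1, Wwtr1 and Lats1 were higher by 0.49 to 0.92 on the log2 scale, with adjusted p of 0.00587 to 0.031.

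Ptpn14 had the lowest adjusted p of the members, with 61.7, 82.2 and 77.6 CPM in C57Bl6 libraries, against 25.1, 31.2 and 29.9 CPM in RAG2KO libraries (log2 1.36 ± 0.16, adjusted p = 0.00174). Jub had a log2 fold change of 0.74 ± 0.12 (adjusted p = 0.00395), Amotl2 1.32 ± 0.36 (adjusted p = 0.0293) and Crim1 0.93 ± 0.26 (adjusted p = 0.0272). Ctgf, Cyr61 and Ankrd1 did not pass: Ctgf differed by 1.03 ± 0.51 (adjusted p = 0.161), Cyr61 by 1.22 ± 0.51 (adjusted p = 0.107), and Ankrd1 by 0.85 ± 0.63 (adjusted p = 0.346), each with overlapping libraries. Gadd45b ran the other way, at 37.3, 43.4 and 50.3 CPM in C57Bl6 libraries, against 56.5, 51.0 and 61.6 CPM in RAG2KO libraries, and did not pass (log2 -0.37 ± 0.14, adjusted p = 0.0823).

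**Figure D2:**
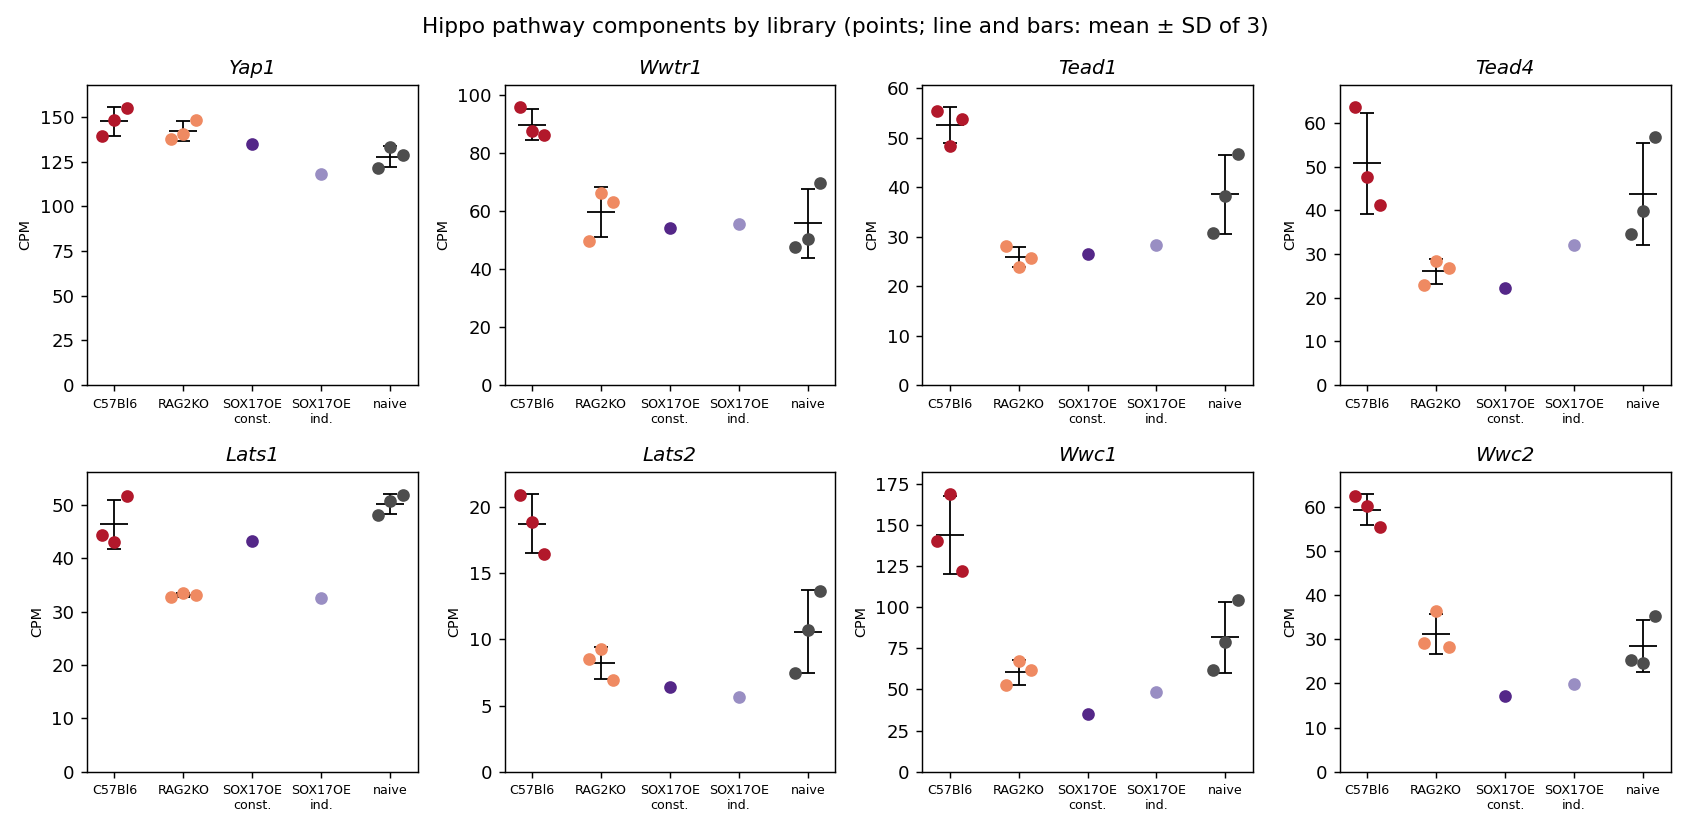
Levels of 8 Hippo pathway components in CPM, with 1 point per library, and the mean and SD of the 3 libraries in the C57Bl6, RAG2KO and naive groups. Tead1 and Wwc1 lie in separate bands in C57Bl6 and RAG2KO libraries, Yap1 stays between 118.3 and 155.2 CPM in all libraries, and naive replicate 3 is the highest naive library in most panels.

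The Rn45s share and the recipient cannot be told apart, since their ranges do not overlap between the groups. With that share as a covariate, 2 genes were called over all genes tested, in place of 3295, and 0 of the 14 members passed. Amotl2 turned to -0.47 (adjusted p = 0.787), and the other 13 kept their sign at log2 fold changes of 0.39 to 1.33, with SE of 0.24 to 0.60 (adjusted p of 0.535 to 0.795). Wwtr1, Lats1, Fat1, Amotl2 and Crim1 each lost the call with at least 1 of the 6 libraries left out, at adjusted p of 0.0507 to 0.0839, and the other 9 kept it in every such set. Wwtr1 lost it without C57Bl6 replicate 1, 2 or 3 or RAG2KO replicate 1 or 3, Lats1 without C57Bl6 replicate 3, and Fat1 without C57Bl6 replicate 1 or RAG2KO replicate 1 or 3. Amotl2 lost it without C57Bl6 replicate 2 or any RAG2KO library, and Crim1 without C57Bl6 replicate 1 or 3 or any RAG2KO library. Under upper quartile scaling, where 1150 genes were called higher and 2017 lower over all genes in place of 1677 and 1618, Wwtr1 lost the call, 13 members were higher and Gadd45b was lower (log2 -0.47, adjusted p = 0.0465). Under library totals, with 2263 genes higher and 1290 lower, 16 members were higher.

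**Figure D3:**
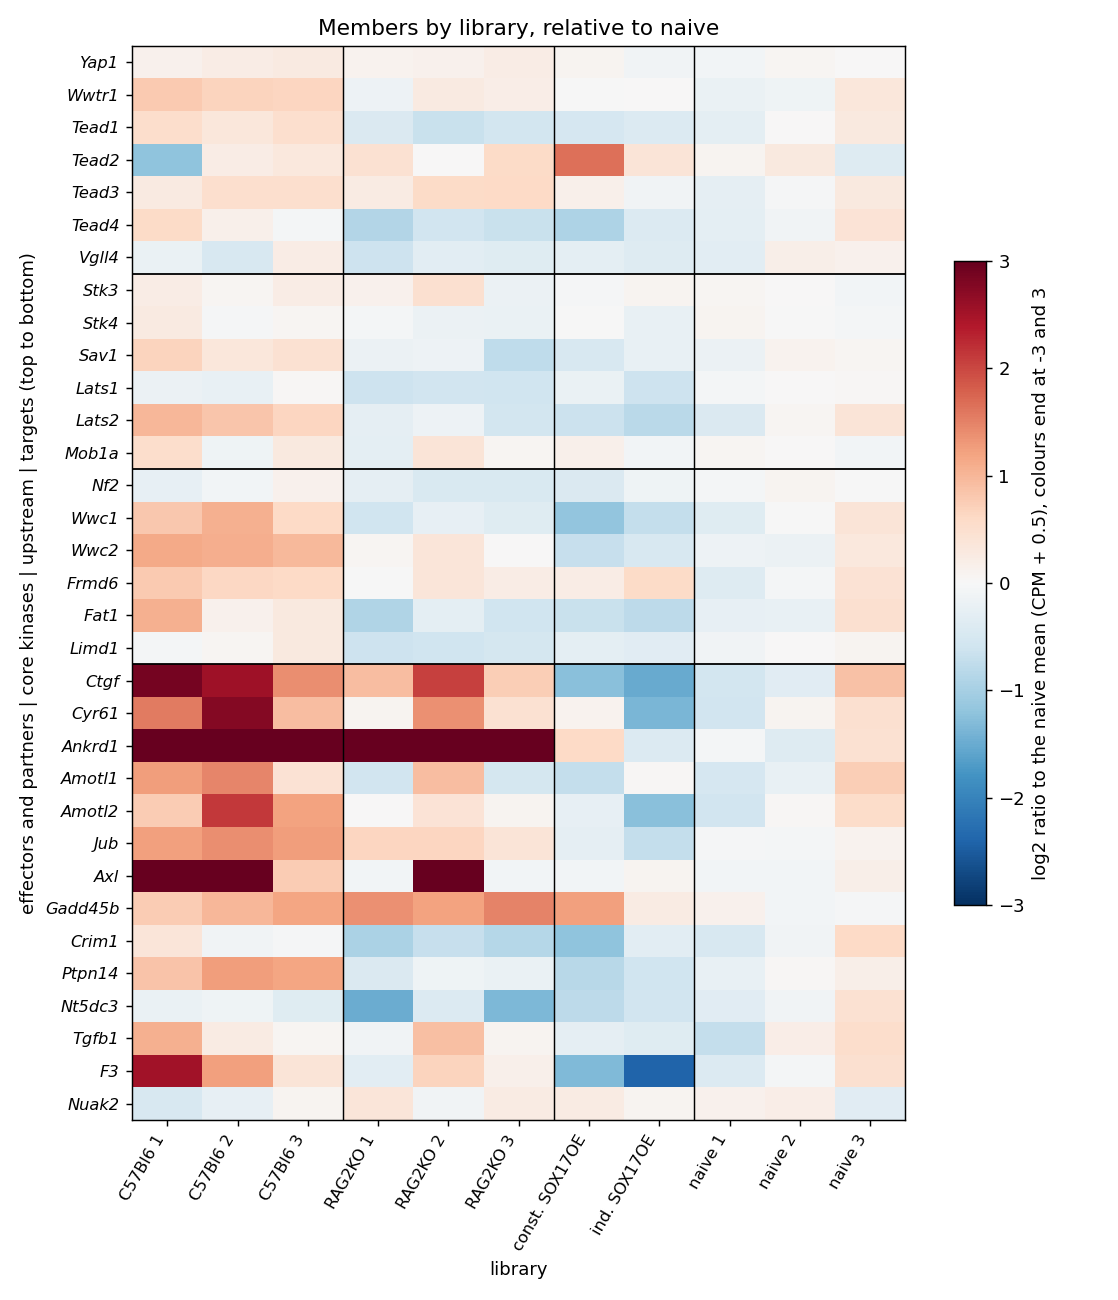
The log2 ratio of each library to the naive mean (CPM + 0.5) for all 33 members, with the libraries in columns, the roles divided by horizontal lines, and red for higher and blue for lower than naive. The C57Bl6 columns are red for most targets and for Wwc1, Wwc2, Lats2 and Wwtr1, RAG2KO replicate 2 is redder than the other RAG2KO libraries for several targets, and colours end at -3 and 3.

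SOX17OE lines against naive organoids asks whether members differ where SOX17 is overexpressed without a passage through a mouse. Of the 14 targets 1 was higher and 2 lower, and of the 19 components 0 were higher and 1 lower, taking the mean of both lines. Over all genes tested, 6.77% were called higher and 5.92% lower. In either direction 12.7% of all genes were called, so that 4 of the 33 members is a count near the background. The median log2 fold change was -0.74 over the targets and -0.33 over the components, beside -0.0070 over all genes. The lines have 1 library each, so the fit assumed that they vary like the other groups, and they differ in Sox17 by a wide margin (72.7 CPM in the constitutive line and 4.78 CPM in the inducible line). Sox17 in the inducible line was above all naive libraries but below all tumour-derived ones, which had 12.4 to 74.3 CPM.

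Ctgf had 35.0 CPM in the constitutive line and 29.3 CPM in the inducible line, against 57.4, 66.3 and 154.8 CPM in naive libraries. F3 had 34.9 CPM in the constitutive line and 16.2 CPM in the inducible line, against 65.9, 84.5 and 122.4 CPM in naive libraries. Both lines lay below all naive libraries for these genes, which did not pass (log2 -1.54 ± 0.60, adjusted p = 0.118 for Ctgf; log2 -1.94 ± 0.60, adjusted p = 0.0638 for F3). Ankrd1 was at 0.749 CPM in the constitutive line and 0.117 CPM in the inducible line, near the naive range of 0.132 to 0.620 CPM. In all, both lines lay below all naive libraries for 5 of 14 targets and 10 of 19 components, and above all of them for 1 target and 1 component. Among all genes tested both lines lay below all naive libraries for 23.0% and above them for 25.3%.

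The members that passed were Wwc1 (log2 -0.99 ± 0.23, adjusted p = 0.0244), Ptpn14 (log2 -0.74 ± 0.18, adjusted p = 0.0295), Jub (log2 -0.49 ± 0.14, adjusted p = 0.0414) and Gadd45b, which was higher (log2 0.75 ± 0.16, adjusted p = 0.0184). Jub had 49.5 CPM in the constitutive line and 36.3 CPM in the inducible line, against 56.8 to 64.5 CPM in naive libraries. Gadd45b had 51.6 CPM in the constitutive line and 25.7 CPM in the inducible line, against 20.5 to 23.6 CPM in naive libraries, so the inducible line stood just above them. Tead2, 1 of the 4 TEAD genes, had 91.0 CPM in the constitutive line and 37.9 CPM in the inducible line, against 30.4, 35.5 and 21.9 CPM in naive libraries, and did not pass (adjusted p = 0.117). The constitutive line is also the one with 36.0 CPM of endothelial markers, of which Tek gave 26.1 CPM, while Emcn was at 0; their part in its values was not tested. No member passed without the constitutive line (adjusted p of 0.097 to 0.539 for the 4 genes), without naive replicate 2 or without naive replicate 3. Jub also lost the call without the inducible line (adjusted p = 0.328), without naive replicate 1 (adjusted p = 0.0633) or without C57Bl6 replicate 3 (adjusted p = 0.0608), and under upper quartile scaling, with no filter and when the groups compared were fitted alone. With the Rn45s share as a covariate 0 of the 4 passed, and 267 genes were called over all genes tested, in place of 1741.

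SOX17OE lines against tumour-derived organoids, a comparison that uses no naive library in its difference, gave 6 lower and 0 higher of 14 targets, and 3 lower and 0 higher of 19 components. Over all genes tested, 4.90% were called higher and 6.73% lower. The median log2 fold change was -1.29 over the targets and -0.20 over the components, beside -0.03 over all genes. The inducible line, at 4.78 CPM of Sox17, had less of it than any tumour-derived library. Jub had 49.5 and 36.3 CPM in the lines, against 77.5 to 157 CPM in the 6 tumour-derived libraries (log2 -1.42 ± 0.13, adjusted p = 0.000348). Ptpn14 (log2 -1.16 ± 0.17, adjusted p = 0.00337) and Wwc2 (log2 -1.23 ± 0.18, adjusted p = 0.0035) were lower too, and these 3 passed in each of the 21 other settings and sample sets. The tumour-derived mean joins both recipients, and the lines were not tested against each recipient apart. Ptpn14 had 18.85 and 22.5 CPM in the lines, against 25.1 to 31.2 CPM in RAG2KO and 61.7 to 82.2 CPM in C57Bl6 libraries. Wwc2 had 17.1 and 19.8 CPM in the lines, against 28.2 to 36.5 CPM in RAG2KO and 55.4 to 62.4 CPM in C57Bl6 libraries. Ankrd1 had 0.749 and 0.117 CPM in the lines, against 7.30 to 46.3 CPM in the tumour-derived libraries (log2 -6.15 ± 1.07, adjusted p = 0.00878; -7.45 without the constitutive line and -4.84 without the inducible line), and Ctgf had 35.0 and 29.3 CPM in the lines, against 140.4 to 616 CPM in the tumour-derived libraries (log2 -3.27 ± 0.63, adjusted p = 0.0126). F3, Amotl2, Wwc1 and Lats2 also passed, with log2 fold changes of -2.83, -1.61, -1.17 and -1.04. Lats2, Wwc1, Ctgf, Amotl2 and F3 lost the call without the constitutive line (adjusted p of 0.0556 to 0.0861), while Gadd45b passed there (log2 -0.95, adjusted p = 0.0307), so 5 members were called. Lats2, Ctgf, Ankrd1, Amotl2 and F3 lost it without the inducible line (adjusted p of 0.0668 to 0.267, 4 left). Amotl2 lost it without RAG2KO replicate 1 or 2 or naive replicate 2 as well, at adjusted p of 0.0504 to 0.0555. Ankrd1 also lost it in limma voom, and F3 with no filter and when the groups compared were fitted alone.

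**Figure D4:**
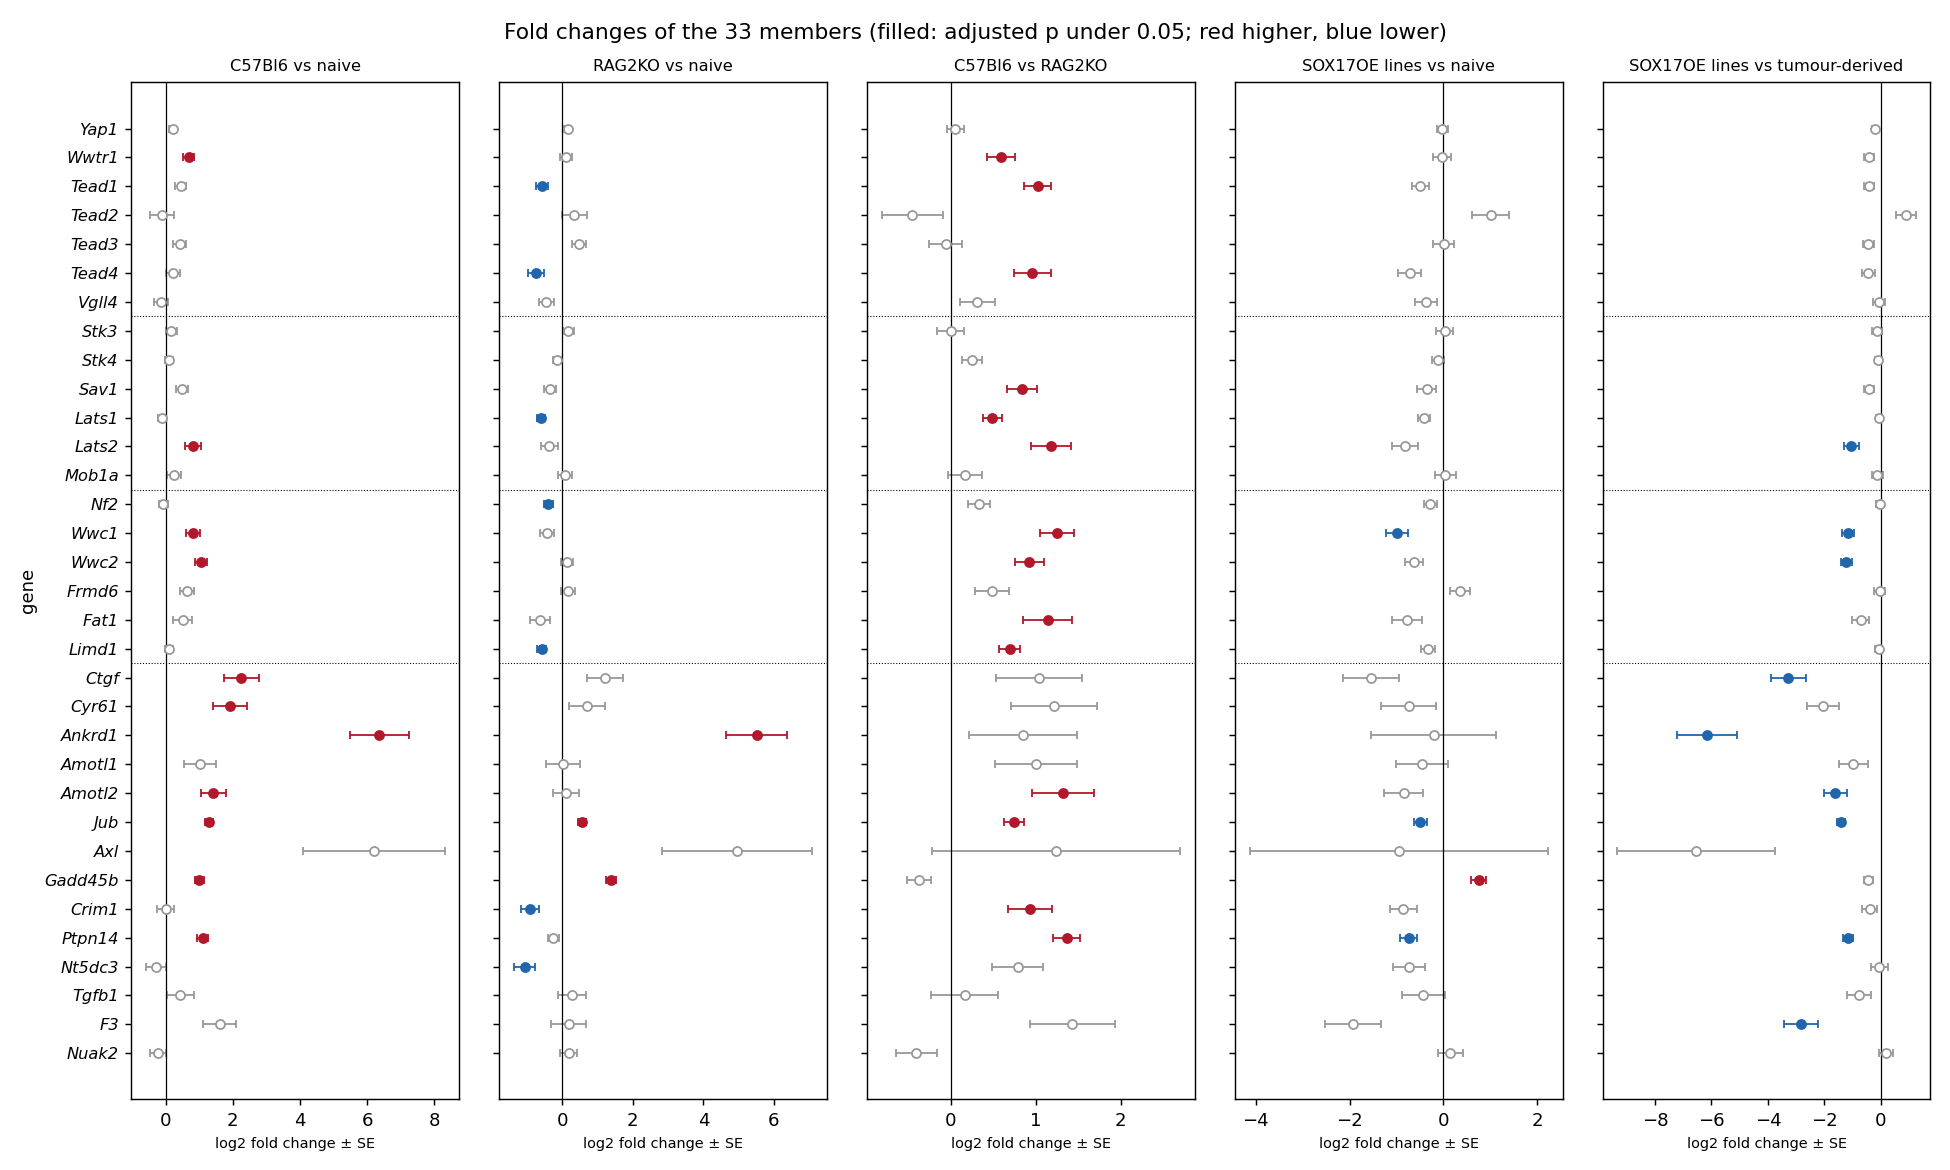
Log2 fold changes with SE of all 33 members in the 5 comparisons, first-named group over the second, with filled points for an adjusted p under 0.05. The C57Bl6 comparison has 11 points filled on the higher side and 0 on the lower side, the RAG2KO comparison has 3 and 7, and the comparison of SOX17OE lines with tumour-derived organoids has 9 filled on the lower side.

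Between genes, levels can be set side by side only per length, here as CPM per kilobase of exon (GENCODE exons on GRCm38, while reads were counted on mm9). Yap1 exceeded Wwtr1 in each group, at 35.4 ± 1.91 against 18.8 ± 1.10 CPM per kilobase in C57Bl6 libraries and 30.7 ± 1.40 against 11.7 ± 2.51 CPM per kilobase in naive libraries (SD, n = 3). Of the TEAD genes Tead4 stood highest in naive libraries at 12.2 ± 3.24 CPM per kilobase and Tead2 next at 8.37 ± 1.96, a gap within their spread, with Tead1 at 3.84 ± 0.793 and Tead3 at 3.07 ± 0.636. In RAG2KO libraries Tead2 was at 10.6 ± 2.15 CPM per kilobase and Tead4 at 7.27 ± 0.800, and in the constitutive line Tead2 was at 26.0. Among the targets, Ctgf was the most abundant per length in C57Bl6 libraries, at 159.6 ± 72.6 CPM per kilobase, followed by F3 at 148 ± 110, a difference far inside the spread. These orders were not tested.

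**Figure D5:**
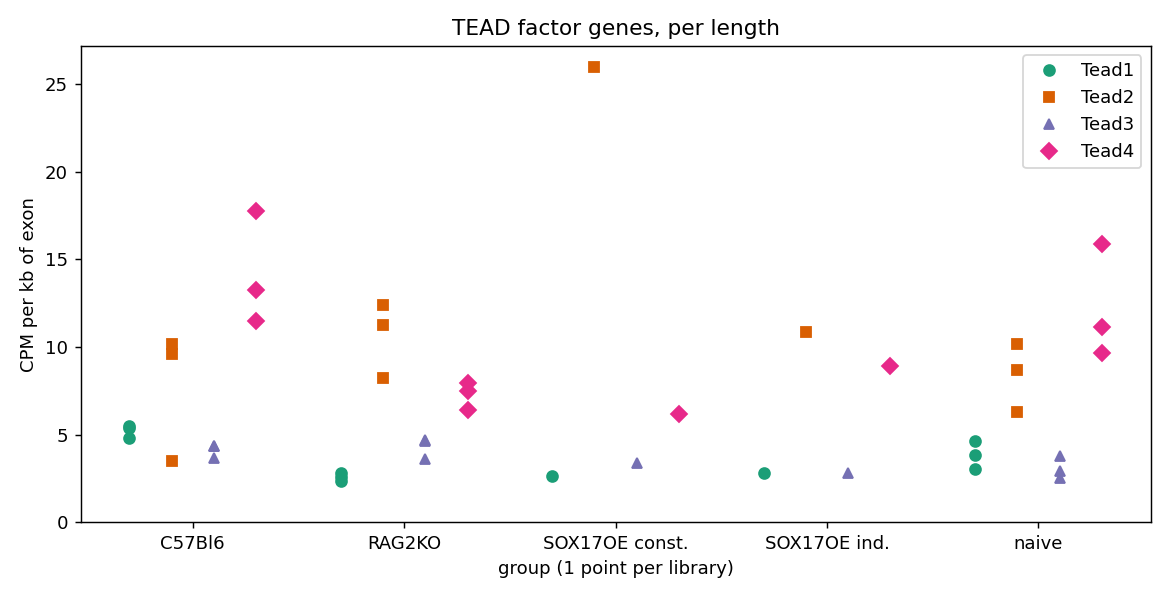
CPM per kilobase of exon of the 4 TEAD genes, with 1 point per library and the groups from C57Bl6 to naive. Tead4 is at 11.5 to 17.8 in C57Bl6 libraries and 6.39 to 7.94 in RAG2KO libraries, and Tead2 reaches 26.0 in the constitutive SOX17OE line.

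Other genes of the pathway come from 2 lists. Of 12 other YAP/TAZ targets 11 were tested, and 6 were higher and 0 lower in C57Bl6 against naive organoids, 4 and 0 in RAG2KO against naive, 2 and 0 in C57Bl6 against RAG2KO, 0 and 0 in SOX17OE lines against naive, and 0 and 2 in SOX17OE lines against tumour-derived organoids. The shares of all genes called higher in these comparisons were 9.50%, 16.0%, 12.2%, 6.77% and 4.90%, so that 2 of 11 between the recipients is a count near the background. In the last comparison, where the 2 calls were lower, 6.73% of all genes were called lower. Ccdc80, a matrix protein, had 40.5, 22.7 and 10.7 CPM in C57Bl6 libraries, 21.0, 32.9 and 13.7 CPM in RAG2KO libraries, 1.61 CPM in the constitutive line, 0.991 CPM in the inducible line, and at most 0.715 CPM in naive libraries. It was higher in C57Bl6 organoids (log2 5.28 ± 0.57, adjusted p = 0.000461) and in RAG2KO organoids (log2 5.15 ± 0.57, adjusted p = 0.000457) than in naive organoids. Arhgef17, a guanine nucleotide exchange factor, had 62.8, 87.6 and 77.8 CPM in C57Bl6 libraries, against 22.5, 30.3 and 26.6 CPM in RAG2KO libraries and 16.4, 29.2 and 32.8 CPM in naive libraries. It exceeded both RAG2KO (log2 1.52 ± 0.25, adjusted p = 0.00392) and naive organoids (log2 1.54 ± 0.24, adjusted p = 0.00291). The target not tested was Fjx1, with at most 9 counts in any library.

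Of 26 other Hippo regulators 23 were tested, and the counts called were near or below the shares over all genes (15.3% called in either direction for C57Bl6 against naive, 29.2% for RAG2KO against naive, 24.0% for C57Bl6 against RAG2KO, 12.7% for SOX17OE lines against naive and 11.6% for SOX17OE lines against tumour-derived organoids). In C57Bl6 against naive organoids 2 were higher and 0 lower, Map4k4, a kinase that can act beside MST on LATS (log2 0.71 ± 0.14, adjusted p = 0.00876), and Csnk1e, a casein kinase (log2 0.58 ± 0.12, adjusted p = 0.0112). In RAG2KO against naive organoids 3 were higher and 2 lower, with Inadl, a junction scaffold of the Crumbs complex, at 50.3, 54.2 and 55.5 CPM in RAG2KO libraries, against 81.7, 85.2 and 98.2 CPM in naive libraries (log2 -0.73 ± 0.11, adjusted p = 0.00184). In C57Bl6 against RAG2KO organoids 4 were higher and 1 lower, led by Inadl (log2 0.62 ± 0.11, adjusted p = 0.00566) and the polarity scaffold Scrib (log2 0.59 ± 0.14, adjusted p = 0.0172). The SOX17OE lines had 0 higher and 2 lower against naive, Inadl (log2 -0.71 ± 0.13, adjusted p = 0.0102) and Taok3, a kinase that acts on MST and LATS (log2 -0.74 ± 0.19, adjusted p = 0.034). Against tumour-derived organoids 0 were higher and 1 was lower, Rassf1, a scaffold that binds MST kinases (log2 -0.66 ± 0.15, adjusted p = 0.0246).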

How the data were processed

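Per the labels, the RNA came from a PureLink (Ambion) extraction, and poly(A) RNA went into NEBNext Ultra II Directional libraries. Per the submitters' processing notes, Bowtie, mm9 and RSEM were used; versions, annotation and the strand setting were not found in these sources, so overlapping genes and close paralogs (such as Mob1a and Mob1b) may share reads. The authors deposited RSEM expected counts, 25.2% of them not whole, which were rounded. The members and gene lists were chosen with earlier results of these data known, so counts over them are descriptions. All 11 libraries in 5 groups from the labels were fitted with edgeR 4.0.16 (R 4.3.3; filterByExpr, TMM, robust quasi-likelihood, two-sided, Benjamini-Hochberg over 13720 genes; SE is the absolute log2 fold change over the square root of F). The common dispersion was 0.0641. All 33 members are named, and in each of the other lists at most 2 called genes per comparison. Promoters are RefSeq sequences on GRCm38.p6 and were matched by symbol; motifs were searched on both strands, and mm9 coordinates were not used. Alternatives were DESeq2 size factors, upper quartile scaling, library totals, no filter, 1 CPM in 3 libraries, a non-robust fit, limma 3.58.1 (voom, weighting samples), DESeq2 1.42.0 (Wald), each library left out, only the groups compared, a replicate block and a Rn45s covariate; the same 9 libraries without the block, and the Axl ratios with a library left out, were added after seeing the data. The fit was tested on simulated data with the same spread for all genes and for C57Bl6 against naive only. That test does not cover the comparisons with the SOX17OE lines or genes of wider spread. Counting intervals and floors cover counting error only. Replicate pairs shared 1.18 to 2.89% of gene counts exactly, and no pair was within sampling noise.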

Additional observations from a re-analysis of the deposited data

Results flagged for a closer look

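The 14 members that differed between the recipients by the direct edgeR test are listed here because their difference from naive organoids was not the same in both tumour-derived groups. As C57Bl6 over RAG2KO log2 fold changes, the components were Wwtr1 0.59, Tead1 1.02, Tead4 0.96, Sav1 0.84, Lats1 0.49, Lats2 1.18, Wwc1 1.25, Wwc2 0.92, Fat1 1.14 and Limd1 0.69. The targets were Amotl2 1.32, Jub 0.74, Crim1 0.93 and Ptpn14 1.36. Adjusted p ranged from 0.00174 for Ptpn14 to 0.031 for Wwtr1. The share of genes called in either direction in this comparison was 24.0%. Whether the Rn45s share or the recipient goes with these values cannot be told apart.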

How the results depend on the processing

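Members called under another setting moved by over 1.5 times as follows. The DESeq2 Wald test called 10 for SOX17OE lines against naive, in place of 4. limma voom called 19 for C57Bl6 against naive, in place of 11, and 9 for SOX17OE lines against naive. With the Rn45s covariate, 0 were called for RAG2KO against naive (10 otherwise), 0 for C57Bl6 against RAG2KO (14 otherwise) and 0 for SOX17OE lines against naive; Amotl2 turned to -0.47 between the recipients, and the cause was not tested. With 1 library left out, the counts were 5 to 12 for C57Bl6 against naive, 5 to 10 for RAG2KO against naive, 10 to 16 for C57Bl6 against RAG2KO, 0 to 6 for SOX17OE lines against naive and 4 to 10 for SOX17OE lines against tumour-derived organoids. Of all member counts under the alternatives, 94 stayed within 1.5 times and 17 moved. Counts over all genes are given for only some of these fits. Where they are missing, here and in the sections above, a changed member count is not a result about the members. For pairing, each gene's group mean was subtracted from its log CPM, and these deviations were correlated between libraries of different groups. The deviations correlated at -0.192 to 0.181 for same-numbered libraries and at -0.251 to 0.171 for the others. The numbers were therefore not taken to pair samples. With the replicate block 9, 7 and 12 members were called in C57Bl6 against naive, RAG2KO against naive and C57Bl6 against RAG2KO. Without the block the same 9 libraries gave 11, 10 and 14 members. Counts over all genes with and without the block are not given here, so the drop is not a result about the members. Ctgf and Lats2 (C57Bl6 against naive), Tead4, Nf2 and Crim1 (RAG2KO against naive) and Fat1 and Crim1 (C57Bl6 against RAG2KO) lost the call under the block. The SOX17OE lines share no replicate numbers, so no block was fitted there. Over all genes, fewer were called with the Rn45s covariate: 148 for RAG2KO against naive (4010 otherwise), 2 for C57Bl6 against RAG2KO (3295 otherwise) and 267 for SOX17OE lines against naive (1741 otherwise). The last comparison had 85 without the constitutive line, 2711 by DESeq2, 3825 by limma voom and 2630 when its groups alone were fitted; limma voom called 4086 for C57Bl6 against naive (2106 otherwise). SOX17OE lines against tumour-derived organoids had 2417 by DESeq2 and 912 when their groups alone were fitted (1595 otherwise). Other scalings moved the median of all genes by at most 0.1 on the log2 scale. Low counts limit Axl and Ankrd1 in naive libraries.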
